A study of Mus musculus with 8 samples.

Results

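T-cell acute lymphoblastic leukaemia (T-ALL) from N-Myc-overexpressing mice was compared with normal T cells, gene by gene, in 2 poly(A) RNA-seq libraries. The T-ALL library was made from CD3+ GFP+ leukaemia cells and the normal library from CD3+ cells of normal bone marrow, where CD3 is the signalling complex of the T-cell receptor. Both came from C57BL/6 mice aged 8 to 10 weeks, and how N-Myc was introduced, what GFP marks and how many mice were pooled are not given in the sources used here. The genes compared were all those with an FPKM (fragments per kilobase of transcript, scaled to the size of the library) of at least 1 in either library, which took 10461 of 16434 listed genes. The nearest gene inside this limit had an FPKM of 1.0005 in its higher library and the nearest outside had 0.999. Differences are T-ALL minus normal T on the log2(FPKM + 1) scale, on which the change of low genes is understated, and a gene counts as at least 2-fold higher or lower when the difference is 1 or more in size. With 1 library a side there is no replicate check and no p-value, so every comparison below describes these 2 libraries. Recovered totals were 43206624 fragments for T-ALL and 37000630 for normal T, and counting intervals and floors of 3 fragments cover counting error only.

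T cells carry receptors assembled by recombination from V, D and J segments, in an alpha-beta or a gamma-delta form, and a mixed population of T cells uses many V segments. Naive T cells circulate in a resting state kept by the KLF2 and FOXO1 transcription factors, while effector cells add granzymes, perforin and chemokines, and innate-like T cells rely on the factor PLZF (Zbtb16). MYC-family transcription factors raise ribosome production, nucleotide synthesis and cell division in growing cells, and they take part in T-cell leukaemia, where Notch signalling is a known upstream activator of Myc.

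Both libraries held several markers that define T cells. Cd3d, a chain of the CD3 complex, had 385 FPKM in T-ALL and 584 FPKM in normal T cells. Thy1, a surface antigen of mouse T cells, had 957 FPKM in T-ALL and 1158 FPKM in normal T cells. Lck, the kinase that starts receptor signalling, had 596 FPKM in T-ALL and 610.0 FPKM in normal T cells. The T-lineage factor gene Bcl11b had 45.5 FPKM in T-ALL and 59.7 FPKM in normal T cells. All 4 genes were therefore present in both libraries, within 2-fold of each other. They are part of a wider set of T-cell markers, and not all of that set stayed within 2-fold. Cd2, from the same set, was at least 2-fold lower in T-ALL, with its values given below.

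Of the 10461 genes, 2309 (22.1%) were at least 2-fold higher in T-ALL and 2514 (24.0%) at least 2-fold lower. Counts in the gene lists below are to be read against these shares. The median difference was 0.03. The middle 90% of differences, between the 5th and 95th percentiles, ran from -2.91 to 2.04, so the low side reached further. At 16-fold or more, 37 genes were higher and 216 lower. Under median-ratio scaling the median of all genes shifts by -0.16 and the counts become 1870 higher and 2809 lower. Receptor segments made up 352 of the compared genes, and 272 of them were lower. Within 0.1 of the limit, 266 genes lay just inside and 306 just outside on the higher side, and 234 and 261 on the lower side. A cell type that is rarer in a bulk sample and one with less RNA per cell cannot be told apart here.

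**Figure D1:**
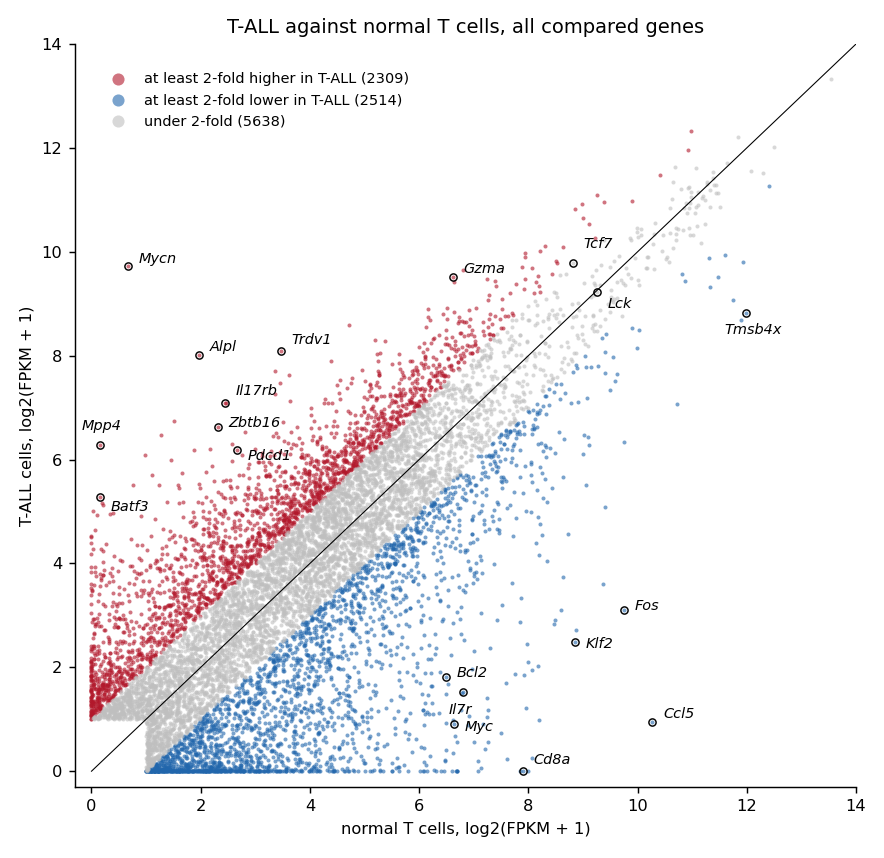
Each point is a gene, with log2(FPKM + 1) in normal T cells on the horizontal axis and in T-ALL cells on the vertical axis. The 2309 red points are at least 2-fold higher in T-ALL, the 2514 blue points at least 2-fold lower and the 5638 grey points in between, and circled genes are named in the text. Mycn stands far above the diagonal and Ccl5 far below it.

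Mycn was the highest difference of all (9.05). It had 843 FPKM in T-ALL and 0.594 FPKM in normal T cells, where Mycn encodes N-Myc itself (chromosome 12, 12936096 to 12941914, mm10), and whether a transcript came from introduced or native Mycn was not tested. Myc, its paralogue and the usual MYC of growing T cells, had 0.874 FPKM in T-ALL and 98.2 FPKM in normal T cells, which is 112-fold lower (95% counting interval 87.8 to 146). The sum of both genes was 844 FPKM in T-ALL and 98.8 FPKM in normal T cells. Among the partners that share the same DNA sites, Max, the obligate partner, had 85.1 FPKM in T-ALL and 77.5 FPKM in normal T cells. Mxd3, a MAX-binding repressor of dividing cells, had 20.9 FPKM in T-ALL and 7.54 FPKM in normal T cells. Mxd1, the repressor of resting and differentiating cells, had 7.97 FPKM in T-ALL and 29.1 FPKM in normal T cells. In the list of the MYC family and its partners, 2 of 10 genes were at least 2-fold higher and 3 lower. These shares, 20% and 30%, are near the 22.1% and 24.0% of all compared genes.

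The genes next below Mycn had varied known roles. Mpp4, a scaffold protein known from photoreceptors, had 77.1 FPKM in T-ALL and 0.112 FPKM in normal T cells. Alpl, tissue-nonspecific alkaline phosphatase, had 257 FPKM in T-ALL and 2.93 FPKM in normal T cells and was 87.7-fold higher (95% counting interval 70.96 to 109.8), and it was also high in B-ALL (240.1 FPKM) and AUL (133 FPKM). Perp, a p53 target of cell junctions, differed by 5.23, Batf3 by 5.13, Dnph1 by 5.11, Pls1, an actin bundler, by 4.99 and Gcsam, a lymphocyte signalling protein, by 4.97. Slc22a3, an organic cation transporter, had 44.8 FPKM in T-ALL and 0.695 FPKM in normal T cells. Bcat1, which transaminates branched-chain amino acids, had 51.3 FPKM in T-ALL and 1.15 FPKM in normal T cells, and was also high in the B-ALL (88.99 FPKM) and AUL libraries (68.04 FPKM). Vdr, the vitamin D receptor, had 30.5 FPKM in T-ALL and 0.322 FPKM in normal T cells. The differences of the genes named here lay between 4.58 (Vdr) and 6.13 (Mpp4).

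Among genes at 0 fragments in normal T cells, Egr4, an early growth response factor, had 21.99 FPKM in T-ALL and was at least 583-fold higher. Shisa6, a partner of neuronal glutamate receptors, had 21.7 FPKM in T-ALL and was at least 813-fold higher. The glutamate transporter gene Slc1a6 had 20.1 FPKM in T-ALL and was at least 331-fold higher. All 3 were also under 2 FPKM in the other 6 libraries. Serpine2, a secreted protease inhibitor, had 44.4 FPKM in T-ALL and 1.35 FPKM in normal T cells, and Rapsn, a clustering protein of the neuromuscular junction, had 62.8 FPKM in T-ALL and 1.75 FPKM in normal T cells. Rpph1, the RNA of ribonuclease P, had 207 FPKM in T-ALL and 9.23 FPKM in normal T cells, and it was as high in B-ALL (198), AML (226) and AUL (208). It was low in normal B (9.59), myeloid (7.56) and lineage-negative cells (8.53). Whether library preparation has a part in this split was not tested.

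Il17rb, the receptor chain for IL-25, had 136 FPKM in T-ALL and 4.46 FPKM in normal T cells. Its neighbour Chdh, a choline dehydrogenase, had 136 FPKM in T-ALL and 4.50 FPKM in normal T cells and lies 126 bases away on chromosome 14. The pair thus stood at nearly the same level, both 4.63 to 4.65 higher. In other libraries the pair differed, with 11.8 FPKM of Chdh and 0.847 FPKM of Il17rb in AML, and 38.6 FPKM of Chdh and 7.70 FPKM of Il17rb in normal lineage-negative cells. No strand setting is stated, and whether transcripts of the pair run into each other in T-ALL was not tested.

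The lowest differences belonged to genes known from several kinds of blood cell. Ccl5, a chemokine of effector T and NK cells, had 0.926 FPKM in T-ALL and 1236 FPKM in normal T cells. Cd7, a surface antigen of T and NK cells, had 0.176 FPKM in T-ALL and 195 FPKM in normal T cells. Nsg2, an endosomal protein, had 0.486 FPKM in T-ALL and 152 FPKM in normal T cells. Cmah, which makes a sialic acid form, had 0.469 FPKM in T-ALL and 127 FPKM in normal T cells. Dapl1, a gene of naive T cells, had 0.150 FPKM in T-ALL and 87.6 FPKM in normal T cells, and Rgs1, an inhibitor of chemokine receptor signalling, had 0.0109 FPKM in T-ALL and 76.5 FPKM in normal T cells. Of the 25 lowest named genes, Prss34 and Mcpt8 are basophil or mast cell proteases and Pax5 and Ly6d mark B-lineage cells. Prss34 had 0.990 FPKM in T-ALL and 294 FPKM in normal T cells, Mcpt8 had 0.352 FPKM in T-ALL and 147 FPKM in normal T cells, Pax5 had 1.07 FPKM in T-ALL and 149.5 FPKM in normal T cells and Ly6d had 0.156 FPKM in T-ALL and 88.3 FPKM in normal T cells.

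The CD3 chains, Lck, Zap70 and Lat were within 2-fold between T-ALL and normal T cells, and other genes near the receptor lay on both sides of the limit. Of 30 genes for CD3 chains and proximal receptor signalling, 1 was at least 2-fold higher, 12 were lower, and the median difference was -0.85, against 0.03 over all compared genes. The adaptor gene Lat had 441 FPKM in T-ALL and 397 FPKM in normal T cells, and the kinase gene Zap70 had 305 FPKM in T-ALL and 215 FPKM in normal T cells. Cd3e had 180.1 FPKM in T-ALL and 221 FPKM in normal T cells, Cd3g had 213 FPKM in T-ALL and 388 FPKM in normal T cells and Cd247, the zeta chain, had 58.4 FPKM in T-ALL and 92.3 FPKM in normal T cells, so the CD3 chains were lower by less than 2-fold. Trat1, an adaptor that stabilises the receptor, was the gene above the limit, with 78.5 FPKM in T-ALL and 28.3 FPKM in normal T cells.

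The lower members included genes that act downstream of the receptor and genes of the cell surface. Rasgrp1, which links the receptor to RAS, had 12.8 FPKM in T-ALL and 103 FPKM in normal T cells. Prkcq, protein kinase C theta, had 27.4 FPKM in T-ALL and 124 FPKM in normal T cells. Txk, a TEC-family kinase, had 0.787 FPKM in T-ALL and 45.997 FPKM in normal T cells. Ptprc, the phosphatase CD45 that sets the activity of LCK, had 181 FPKM in T-ALL and 766 FPKM in normal T cells. Cd2, an adhesion receptor, had 65.5 FPKM in T-ALL and 319 FPKM in normal T cells. Grap2, an adaptor that joins SLP-76 to LAT, had 22.6 FPKM in T-ALL and 124 FPKM in normal T cells. These 6 genes lay between -4.72 and -2.07 on the log2 scale.

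Among listed beta V segments, 1 had fragments in T-ALL. Trbv12-1 had 473 FPKM in T-ALL and 70.3 FPKM in normal T cells, and the other 21 listed Trbv segments were listed at 0 in T-ALL. In normal T cells all 22 had transcripts, led by Trbv16 at 103 FPKM, which was 9.50% of their summed FPKM. Trbv13-2, with 103 FPKM in normal T cells, was at least 503-fold lower. The constant genes stayed close, with Trbc2 at 549 FPKM in T-ALL and 787 FPKM in normal T cells, and Trbc1 at 434 FPKM in T-ALL and 468 FPKM in normal T cells. Among J segments Trbj2-7 was highest in both libraries, with 444 FPKM in T-ALL and 367 FPKM in normal T cells. Segments share sequence with their near copies, so the split between them is uncertain.

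The alpha and delta chains share a locus and differed from each other. Trac, the alpha constant gene, had 264 FPKM in T-ALL and 456 FPKM in normal T cells. Listed Trav segments summed to 10.6 FPKM in T-ALL and 397 FPKM in normal T cells, and 53 of 70 were at 0 in T-ALL. No listed Trav segment reached 2 FPKM in T-ALL. The 70 listed compare with 108 Trav genes annotated in GENCODE, and segments that are not listed could not be seen. Of 39 compared Traj segments, 27 were at least 2-fold higher and 1 was lower, led in T-ALL by Traj1 with 67.04 FPKM in T-ALL and 92.3 FPKM in normal T cells. These sums and counts cover listed segments only.

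Trdv1, a delta V segment, had 272 FPKM in T-ALL and 10.1 FPKM in normal T cells, and B-ALL had 58.9 FPKM of it. Trdc, the delta constant gene, was at 0 in T-ALL and had 20.7 FPKM in normal T cells. The 3 other listed Trdv segments and both Trdj segments were also at 0 in T-ALL. Delta V transcripts thus stood without delta constant transcripts in T-ALL, whereas normal T cells had both.

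At the gamma locus, Trgv2 had 209 FPKM in T-ALL and 61.6 FPKM in normal T cells, the joining segment Trgj4 had 265 FPKM in T-ALL and 38.1 FPKM in normal T cells, and the constant gene Tcrg-C2 had 285 FPKM in T-ALL and 62.9 FPKM in normal T cells. Tcrg-C4 had 198 FPKM in T-ALL and 37.5 FPKM in normal T cells. Tcrg-C1 and its joining segment went the other way, with 1.03 FPKM in T-ALL and 45.7 FPKM in normal T cells for Tcrg-C1 and 0.386 FPKM in T-ALL and 22.1 FPKM in normal T cells for Trgj1. Tcrg-V4, a gamma V segment with 14.8 FPKM in normal T cells, had 0.109 FPKM in T-ALL. Gamma transcripts in T-ALL were therefore concentrated on Trgv2, Trgj4, Tcrg-C2 and Tcrg-C4.

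**Figure D2:**
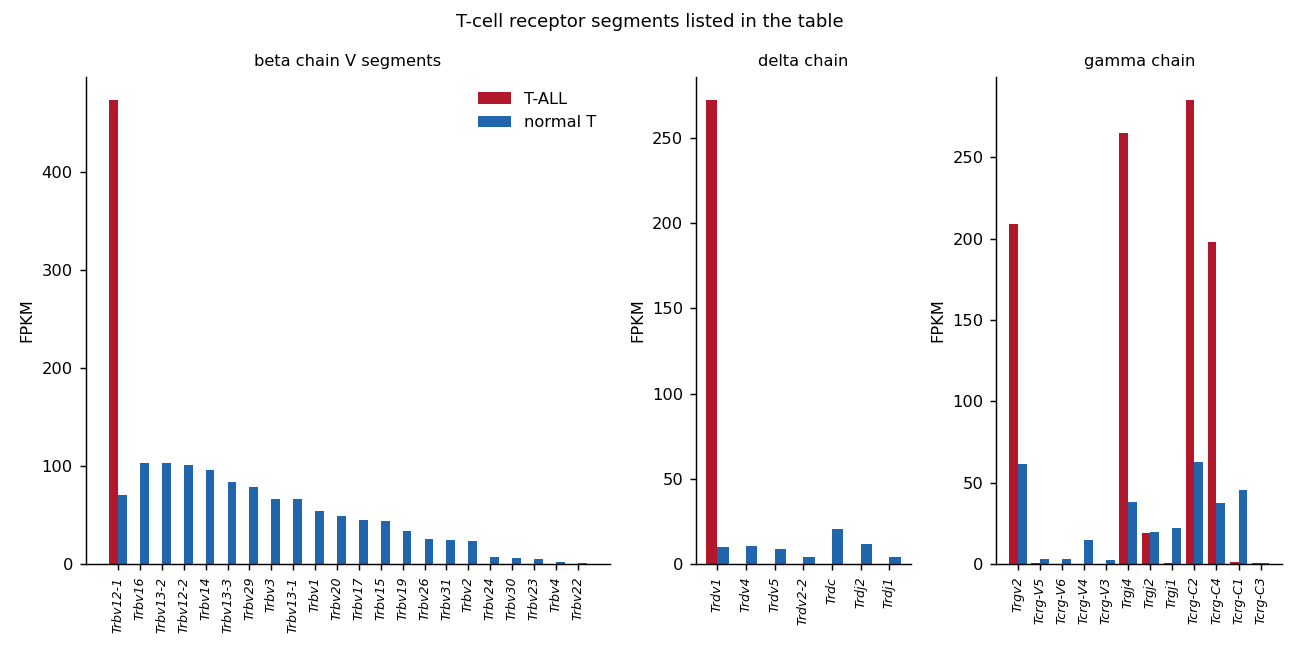
Bars give FPKM of T-cell receptor segments in T-ALL (red) and normal T cells (blue), 1 library each, for beta V segments, delta segments and gamma segments. Trbv12-1 is the only red bar among 22 beta V segments, Trdv1 the only red bar at the delta locus, and Trgv2, Trgj4, Tcrg-C2 and Tcrg-C4 are the high red bars at the gamma locus.

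Coreceptors and thymocyte stage genes were mostly lower. Of 16 genes, 12 were at least 2-fold lower (75%, against 24.0% of all compared genes) and 0 were higher. The CD8 genes, which mark cytotoxic T cells, were almost absent, with Cd8a at 0 FPKM in T-ALL and 238 FPKM in normal T cells, and Cd8b1 at 0.187 FPKM in T-ALL and 268 FPKM in normal T cells. Cd4, the coreceptor of helper cells, had 26.8 FPKM in T-ALL and 75.3 FPKM in normal T cells. Zbtb7b, the factor ThPOK that directs cells to the CD4 fate, had 76.9 FPKM in T-ALL and 45.2 FPKM in normal T cells, and Runx3, its CD8-fate counterpart, had 65.7 FPKM in T-ALL and 162 FPKM in normal T cells. Rag1 and Dntt are genes of early thymocytes and also of B-cell progenitors, and B-cell markers summed to 22.4 FPKM in T-ALL and 1256 FPKM in normal T cells, whose part in these values was not tested. Rag1, a recombinase chain, had 0.00701 FPKM in T-ALL and 12.9 FPKM in normal T cells, Dntt, the terminal transferase, had 0.0441 FPKM in T-ALL and 6.67 FPKM in normal T cells, and Il2ra, the high-affinity IL-2 receptor chain, had 0.0117 FPKM in T-ALL and 15.3 FPKM in normal T cells. Slamf6 was within 2-fold, with 76.5 FPKM in T-ALL and 85.7 FPKM in normal T cells.

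Of 19 Notch receptors, ligands and targets, 1 was at least 2-fold higher and 8 were lower, with a median of -0.83. Notch1, the receptor most often mutated in human T-ALL, had 59.4 FPKM in T-ALL and 155 FPKM in normal T cells. Dtx1, a Notch target, had 1.49 FPKM in T-ALL and 74.6 FPKM in normal T cells, and Hes1, a repressor and classic target, had 0.421 FPKM in T-ALL and 6.01 FPKM in normal T cells. Jag2, a ligand, was the higher one, with 12.96 FPKM in T-ALL and 2.17 FPKM in normal T cells. Among transcription factors switched on in human T-ALL, 8 passed the FPKM limit, 5 were at least 2-fold lower and 0 higher. Lmo2 had 3.58 FPKM in T-ALL and 21.9 FPKM in normal T cells, Lyl1 had 6.25 FPKM in T-ALL and 18.1 FPKM in normal T cells, and Tal1 had 0.129 FPKM in T-ALL and 1.83 FPKM in normal T cells. Of 14 tumour suppressors of human T-ALL, 3 were higher (21.4%, against 22.1% of all compared genes) and 2 lower (14.3%, against 24.0%). Cdkn2a, which encodes the p16 and p19 inhibitors, had 12.98 FPKM in T-ALL and 0.835 FPKM in normal T cells, and Ezh2, the Polycomb methyltransferase, had 129 FPKM in T-ALL and 47.7 FPKM in normal T cells. Cdkn1b, the inhibitor p27, had 18.2 FPKM in T-ALL and 113 FPKM in normal T cells.

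Transcription factors of the T lineage were more often lower than higher. Of 43, 4 were at least 2-fold higher (9.30%, against 22.1% of all compared genes) and 20 lower (46.5%, against 24.0%), with a median of -0.78. Tcf7, the factor TCF1 of early and memory T cells, had 882 FPKM in T-ALL and 449.7 FPKM in normal T cells and lay just under the limit at 0.97. Gata3, needed for T-cell specification and type 2 helper cells, had 115 FPKM in T-ALL and 51.5 FPKM in normal T cells. Id3, an inhibitor of E proteins, had 151 FPKM in T-ALL and 46.8 FPKM in normal T cells. Zbtb16, the factor PLZF, had 98.4 FPKM in T-ALL and 3.98 FPKM in normal T cells and was 24.7-fold higher (95% counting interval 22.7 to 26.9). Batf3, an AP-1 family factor, had 37.9 FPKM in T-ALL and 0.110 FPKM in normal T cells. Tbx21, the factor T-bet, was nearly equal, with 32.9 FPKM in T-ALL and 30.5 FPKM in normal T cells.

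The lower factors included those of effector, regulatory and resting cells. Id2, the E-protein inhibitor of effector cells, had 6.49 FPKM in T-ALL and 170.3 FPKM in normal T cells, opposite to Id3. Eomes, a factor of memory CD8 and NK cells, had 0.0430 FPKM in T-ALL and 46.6 FPKM in normal T cells, unlike its relative Tbx21. Foxp3, the factor of regulatory T cells, had 0.0812 FPKM in T-ALL and 12.8 FPKM in normal T cells. Bach2, which restrains effector programmes, had 0.121 FPKM in T-ALL and 44.2 FPKM in normal T cells, and Satb1, a chromatin organiser of thymocytes, had 6.61 FPKM in T-ALL and 106 FPKM in normal T cells. Lef1, the relative of Tcf7, had 20.2 FPKM in T-ALL and 66.1 FPKM in normal T cells.

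Homing and quiescence genes of naive T cells were lower almost throughout. Of 26 genes 24 were at least 2-fold lower (92.3%) and 0 were higher, with a median of -3.20. Klf2, which holds T cells in rest and drives their trafficking genes, had 4.57 FPKM in T-ALL and 463 FPKM in normal T cells and was 101-fold lower (95% counting interval 91.3 to 113). Its known target S1pr1, the receptor for exit from lymphoid organs, had 0.973 FPKM in T-ALL and 96.8 FPKM in normal T cells. Ccr7, the homing chemokine receptor, had 3.94 FPKM in T-ALL and 128 FPKM in normal T cells. Il7r, the receptor chain for the survival cytokine IL-7, had 1.87 FPKM in T-ALL and 111 FPKM in normal T cells. Btg1, an antiproliferative gene of resting cells, had 3.28 FPKM in T-ALL and 253 FPKM in normal T cells, and Tsc22d3, the glucocorticoid-induced leucine zipper, had 5.62 FPKM in T-ALL and 470.2 FPKM in normal T cells. Txnip, an inhibitor of glucose uptake, had 50.02 FPKM in T-ALL and 396 FPKM in normal T cells, while Treml2 was within 2-fold.

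Of 27 cytotoxic effector genes, 21 were at least 2-fold lower and 1 was higher, with a median of -4.13. Prf1, the pore protein perforin, had 0.0113 FPKM in T-ALL and 26.8 FPKM in normal T cells, and Gzmb, granzyme B, had 0.0816 FPKM in T-ALL and 68.9 FPKM in normal T cells. Ifng, interferon gamma, had 0.690 FPKM in T-ALL and 52.6 FPKM in normal T cells. Nkg7, a protein of cytotoxic granules, had 44.4 FPKM in T-ALL and 533 FPKM in normal T cells. Gzma, granzyme A, was the exception, with 732 FPKM in T-ALL and 97.2 FPKM in normal T cells, and was 7.52-fold higher (95% counting interval 7.26 to 7.80). Unc13d, which takes part in the release of granules, had 101 FPKM in T-ALL and 86.01 FPKM in normal T cells. Markers of NK cells went with this group. All 15 of 15 NK markers compared were at least 2-fold lower, their summed level was 97.7 FPKM in T-ALL and 843 FPKM in normal T cells, and 5 of them were at 0 in T-ALL. The part of NK cells in the lower effector genes was not tested.

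Costimulatory and inhibitory receptors were mostly lower, 18 of 25 against 2 higher (median -2.32). Pdcd1, the inhibitory receptor PD-1, had the largest difference upwards (3.52), with 72.1 FPKM in T-ALL and 5.35 FPKM in normal T cells. Lair1, an inhibitory collagen receptor, had 16.6 FPKM in T-ALL and 7.27 FPKM in normal T cells. Cd28, the main costimulatory receptor, had 108 FPKM in T-ALL and 70.2 FPKM in normal T cells. Ctla4, which competes for the same ligands, had 0.0644 FPKM in T-ALL and 48.7 FPKM in normal T cells, and Icos, a related costimulator, had 0.297 FPKM in T-ALL and 27.7 FPKM in normal T cells. Lag3 and Tigit, inhibitory receptors often found beside PD-1, were low, with 0.0572 FPKM in T-ALL and 15.5 FPKM in normal T cells for Lag3 and 1.59 FPKM in T-ALL and 20.7 FPKM in normal T cells for Tigit. Among 17 genes of regulatory T cells 13 were lower. Izumo1r, the folate receptor 4, was the 1 higher gene, with 162 FPKM in T-ALL and 50.8 FPKM in normal T cells.

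Of 18 genes of innate-like and gamma-delta T cells, 4 were at least 2-fold higher and 11 lower. The higher ones were Il17rb, Zbtb16, Tcrg-C2 and Tcrg-C4. The lower ones included Klrb1c, the antigen NK1.1, with 9.46 FPKM in T-ALL and 52.4 FPKM in normal T cells. Cd163l1, a scavenger receptor of gamma-delta T cells, had 0 FPKM in T-ALL and 14.8 FPKM in normal T cells. Sh2d1a, the adaptor SAP, had 65.9 FPKM in T-ALL and 40.1 FPKM in normal T cells. The share of the list that was higher, 22.2%, is close to the 22.1% of all compared genes, while 61.1% were lower, against 24.0%.

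Cytokine receptors were lower in 23 of 34 cases and higher in 4 (median -1.55). Il9r, the IL-9 receptor, had 51.4 FPKM in T-ALL and 5.51 FPKM in normal T cells, and Csf2ra, the alpha chain for GM-CSF, had 67.4 FPKM in T-ALL and 14.7 FPKM in normal T cells, whereas Csf2rb, the signalling chain it needs, had 1.15 FPKM in T-ALL and 12.2 FPKM in normal T cells. Il12rb1 had 66.3 FPKM in T-ALL and 30.5 FPKM in normal T cells, and Il2rb, the beta chain for IL-2 and IL-15, had 68.9 FPKM in T-ALL and 358 FPKM in normal T cells. Il18r1, an IL-18 receptor chain, had 0.220 FPKM in T-ALL and 72.8 FPKM in normal T cells. Ifngr1, the interferon gamma receptor, had 42.6 FPKM in T-ALL and 343 FPKM in normal T cells. Of 22 chemokine receptors and chemotaxis genes 18 were lower and 1 was higher. Ccr4, a receptor of type 2 helper and skin-homing T cells, had 50.8 FPKM in T-ALL and 5.82 FPKM in normal T cells, and Cxcr3, a receptor of type 1 cells, had 77.4 FPKM in T-ALL and 61.7 FPKM in normal T cells. Cxcr6 had 0.158 FPKM in T-ALL and 30.4 FPKM in normal T cells. Of 25 integrins and adhesion genes 15 were lower, such as Itgb7, the beta 7 chain of gut homing, with 22.8 FPKM in T-ALL and 422 FPKM in normal T cells. Cd81, a tetraspanin, was the 1 that was higher, with 67.6 FPKM in T-ALL and 18.7 FPKM in normal T cells.

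**Figure D3:**
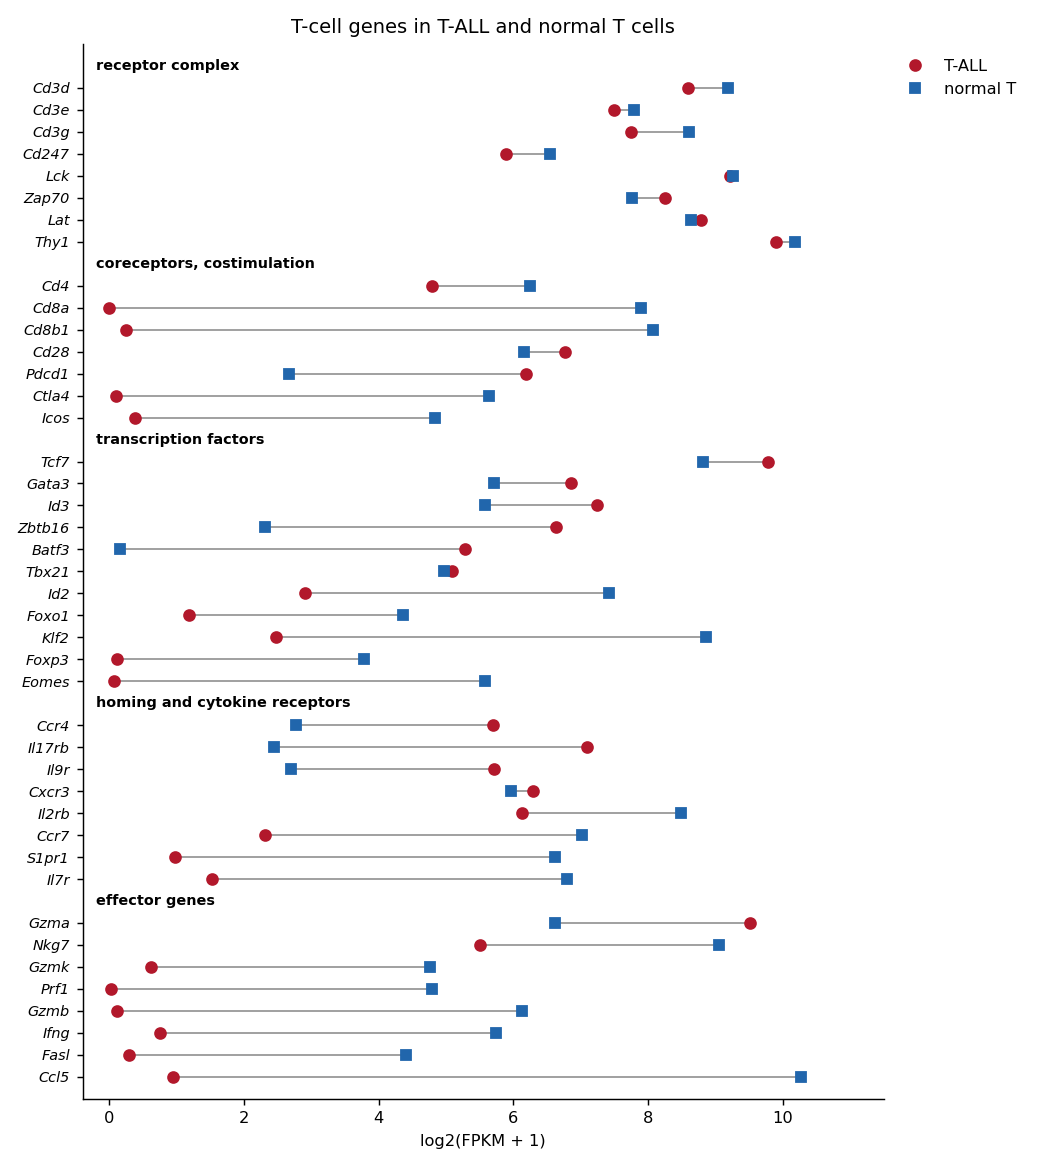
T-cell genes in blocks of function, with log2(FPKM + 1) in T-ALL as red circles and in normal T cells as blue squares, 1 library each, joined by a line. Receptor complex genes lie close together, most homing and effector genes lie far lower in T-ALL, and Gzma, Zbtb16, Batf3, Il17rb, Ccr4, Il9r and Pdcd1 lie higher.

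Immediate early genes, which answer signals within minutes and also the handling of cells, were mostly lower in T-ALL. Of 27, 24 were at least 2-fold lower and 0 higher, with a median of -2.90. Fos, an AP-1 subunit, had 7.55 FPKM in T-ALL and 859 FPKM in normal T cells, and Junb, another subunit, had 133 FPKM in T-ALL and 1691 FPKM in normal T cells. Dusp1, a MAPK phosphatase, had 12.4 FPKM in T-ALL and 397 FPKM in normal T cells, and Zfp36, an RNA-decay factor, had 15.5 FPKM in T-ALL and 325 FPKM in normal T cells. Egr3 and Nr4a2 were within 2-fold, with 11.4 FPKM in T-ALL and 9.79 FPKM in normal T cells for Egr3 and 13.7 FPKM in T-ALL and 14.9 FPKM in normal T cells for Nr4a2. Egr4, of the same family as Egr3, was the gene at 0 in normal T cells described above.

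Of 21 NF-kB pathway genes and targets 18 were lower (median -2.59), such as Tnfaip3, the feedback inhibitor A20, with 6.56 FPKM in T-ALL and 357 FPKM in normal T cells. The NF-kB subunit gene Rela itself was within 2-fold, with 36.6 FPKM in T-ALL and 47.9 FPKM in normal T cells. Of 17 JAK-STAT and SOCS genes 12 were lower (median -1.58). Stat4, which carries the IL-12 signal, had 0.165 FPKM in T-ALL and 37.7 FPKM in normal T cells, Socs3, a feedback inhibitor, had 1.65 FPKM in T-ALL and 149.9 FPKM in normal T cells, and Stat5b had 87.3 FPKM in T-ALL and 60.5 FPKM in normal T cells. Cish, an IL-2 target, had 0 FPKM in T-ALL and 11.9 FPKM in normal T cells.

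Of 23 RAS-MAPK genes 13 were lower and 1 was higher (median -1.08). Rasa3, a GTPase-activating protein, had 6.31 FPKM in T-ALL and 228 FPKM in normal T cells. Dusp6, which inactivates ERK, had 3.78 FPKM in T-ALL and 32.9 FPKM in normal T cells, and Spry1, a feedback inhibitor, was the higher gene, with 6.40 FPKM in T-ALL and 2.29 FPKM in normal T cells. Of 18 PI3K, AKT and mTOR genes 6 were lower and 1 was higher, Eif4ebp1, an mTOR target, with 28.7 FPKM in T-ALL and 11.1 FPKM in normal T cells. Inpp4b, a lipid phosphatase, had 3.74 FPKM in T-ALL and 94.5 FPKM in normal T cells, and Pik3ip1, an inhibitor of PI3K, had 18.02 FPKM in T-ALL and 116 FPKM in normal T cells. Pik3cd, the leukocyte catalytic subunit, had 136 FPKM in T-ALL and 438 FPKM in normal T cells. Akt2 had 165 FPKM in T-ALL and 101 FPKM in normal T cells.

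Interferon and antigen presentation genes were mostly lower. Of 35 interferon response genes 30 were at least 2-fold lower and 0 higher (median -2.41). Ifi27l2a had 2.60 FPKM in T-ALL and 241 FPKM in normal T cells, and Irf7, a factor that amplifies type I interferon, had 5.22 FPKM in T-ALL and 77.4 FPKM in normal T cells. Ly6e was near equal, with 947 FPKM in T-ALL and 991 FPKM in normal T cells. Of 12 MHC class I genes 11 were lower, and H2-Q10 was higher with 32.96 FPKM in T-ALL and 8.18 FPKM in normal T cells. H2-D1 had 538 FPKM in T-ALL and 3447 FPKM in normal T cells, and B2m, the shared light chain, had 729 FPKM in T-ALL and 2841 FPKM in normal T cells. Near-identical copies make single values of the H2 genes uncertain. Nlrc5, which switches on class I genes, had 24.2 FPKM in T-ALL and 171 FPKM in normal T cells, one of 6 lower genes of 10 for antigen processing and the immunoproteasome. Calr, a chaperone of class I assembly, was within 2-fold, with 757 FPKM in T-ALL and 409 FPKM in normal T cells.

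Most cell division genes were higher. Of 47 mitosis genes 45 were at least 2-fold higher (95.7%, against 22.1% of all compared genes), with a median of 2.23. Bub1b, a spindle checkpoint kinase, had 184 FPKM in T-ALL and 22.5 FPKM in normal T cells, Top2a, the topoisomerase of dividing cells, had 335 FPKM in T-ALL and 81.8 FPKM in normal T cells, and Cdc20, an activator of the anaphase-promoting complex, had 173 FPKM in T-ALL and 33.2 FPKM in normal T cells. Pttg1, securin, and Racgap1 were the 2 within the limit, with 21.2 FPKM in T-ALL and 35.7 FPKM in normal T cells for Pttg1. Of 43 replication genes 40 were higher and 0 lower (median 1.99). Mcm2, a helicase subunit, had 444 FPKM in T-ALL and 85.3 FPKM in normal T cells, Dna2, a nuclease, had 42.9 FPKM in T-ALL and 2.04 FPKM in normal T cells, and Pcna, the sliding clamp, had 644 FPKM in T-ALL and 292 FPKM in normal T cells. DNA repair genes were higher in 27 of 41 cases. Exo1, an exonuclease, had 42.8 FPKM in T-ALL and 2.95 FPKM in normal T cells. The damage kinase Atm was within 2-fold, with 43.9 FPKM in T-ALL and 49.5 FPKM in normal T cells.

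Among cyclins, CDKs and E2F genes 20 of 25 were higher and 2 lower (median 1.83). Cdk4 had 399 FPKM in T-ALL and 115 FPKM in normal T cells, Cdk6 had 149 FPKM in T-ALL and 34.3 FPKM in normal T cells, and E2f1 had 34.4 FPKM in T-ALL and 6.23 FPKM in normal T cells. The lower ones were both D-type cyclins of lymphocytes. Ccnd2 had 98.98 FPKM in T-ALL and 242 FPKM in normal T cells and Ccnd3 had 101 FPKM in T-ALL and 219.6 FPKM in normal T cells. Of 11 cell-cycle inhibitors 7 were lower and 2 higher. Cdkn2d, the inhibitor p19INK4d, had 17.4 FPKM in T-ALL and 75.3 FPKM in normal T cells. The higher ones were Cdkn2a and Cdkn2c, the inhibitor p18, with 44.4 FPKM in T-ALL and 13.6 FPKM in normal T cells for Cdkn2c.

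Genes of ribosome production were higher by less than those of division. Of 46 genes for nucleolar ribosome biogenesis and RNA polymerase I, 28 were at least 2-fold higher and 0 lower, and all 46 differences were above 0 (median 1.27). Npm1, nucleophosmin, had 2170.1 FPKM in T-ALL and 614 FPKM in normal T cells, Ncl, nucleolin, had 1037 FPKM in T-ALL and 296 FPKM in normal T cells, and Fbl, the RNA methyltransferase fibrillarin, had 442 FPKM in T-ALL and 208 FPKM in normal T cells. The cytosolic ribosomal protein genes did not share this. Of 69, 1 was higher and 4 lower, and their summed FPKM was 109762 in T-ALL and 121495 in normal T cells. Rps27 had 983 FPKM in T-ALL and 3113 FPKM in normal T cells, whereas its variant Rps27l, also known as a p53 target, had 266 FPKM in T-ALL and 66.3 FPKM in normal T cells.

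Translation factors were higher in 12 of 28 cases and lower in 0 (median 0.92). Eif5a, the factor that carries hypusine, had 1925 FPKM in T-ALL and 501 FPKM in normal T cells, and Eif4e, the cap-binding protein, had 121 FPKM in T-ALL and 34.9 FPKM in normal T cells. Of 22 tRNA synthetases 11 were higher and 0 lower (median 1.004), with Eprs at 117 FPKM in T-ALL and 40.2 FPKM in normal T cells. Cytosolic chaperones were higher in 14 of 24 cases, for example Hsp90aa1 with 1105 FPKM in T-ALL and 315 FPKM in normal T cells. Of 23 genes for mitochondrial import and chaperones 13 were higher (median 1.30), for example Hspd1, the chaperonin HSP60, with 712 FPKM in T-ALL and 151 FPKM in normal T cells.

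**Figure D4:**
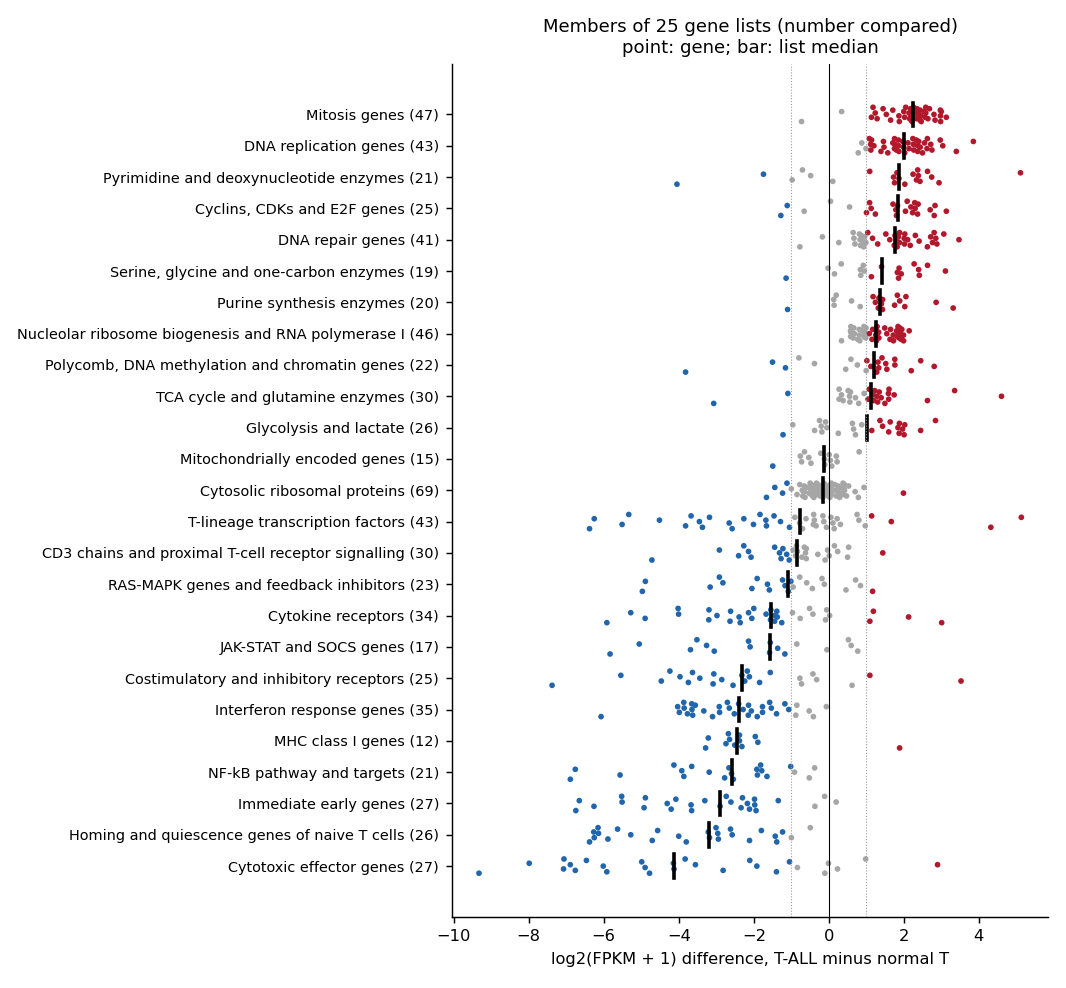
Each point is a compared gene of a list, placed by its log2(FPKM + 1) difference, T-ALL minus normal T, with red at 1 or above, blue at -1 or below and grey between, and the black bar is the list's median. Division and nucleotide lists lie to the right (mitosis median 2.23), ribosomal proteins lie around 0 (-0.15), and homing and effector lists lie to the left (-3.20 and -4.13).

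Nucleotide enzymes were among the higher metabolic groups. Of 21 pyrimidine and deoxynucleotide enzymes 15 were higher and 2 lower (median 1.87). Dnph1, a deoxynucleotide hydrolase, had 67.3 FPKM in T-ALL and 0.977 FPKM in normal T cells. Tk1, thymidine kinase, had 154 FPKM in T-ALL and 22.1 FPKM in normal T cells, and Cad, the enzyme that starts pyrimidine synthesis, had 233 FPKM in T-ALL and 48.2 FPKM in normal T cells. Samhd1, which breaks deoxynucleotides down, had 16.8 FPKM in T-ALL and 293 FPKM in normal T cells. Of 20 purine enzymes 14 were higher and 1 lower (median 1.37). Pfas had 97.96 FPKM in T-ALL and 12.6 FPKM in normal T cells, and Ppat, the first committed enzyme, had 47.03 FPKM in T-ALL and 10.6 FPKM in normal T cells.

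CACGTG, the E-box that MYC and MAX bind, was looked for in RefSeq promoter windows (GRCm38.p6, 250 bases before to 50 after a start), and its reverse complement is the same word. It was present in 2349 of 32851 windows (7.15%). Windows were given for 6382 of 8231 compared genes that are neither receptor segments nor predicted genes (77.5%), under 80%, so a comparison of higher with lower genes is void. The 4 windows below are examples from the nucleotide, one-carbon and nucleolar genes that hold the motif and are at least 2-fold higher. These windows were taken by T-ALL level, but not every window was open to the choice. The 4 genes therefore need not have the highest levels of all such genes. The windows are printed as examples only. They show where the word stands, in capitals, in genes that were each higher in T-ALL, and a match is not evidence of binding.
Impdh2 (chr9:108560186-108560485, plus strand): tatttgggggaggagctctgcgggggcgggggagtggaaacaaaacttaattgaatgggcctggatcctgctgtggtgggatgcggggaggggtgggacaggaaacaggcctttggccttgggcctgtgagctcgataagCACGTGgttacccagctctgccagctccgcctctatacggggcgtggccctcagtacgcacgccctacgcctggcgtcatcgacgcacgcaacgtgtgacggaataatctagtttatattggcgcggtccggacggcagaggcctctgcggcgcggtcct
Dtymk (chr1:93801885-93802184, minus strand): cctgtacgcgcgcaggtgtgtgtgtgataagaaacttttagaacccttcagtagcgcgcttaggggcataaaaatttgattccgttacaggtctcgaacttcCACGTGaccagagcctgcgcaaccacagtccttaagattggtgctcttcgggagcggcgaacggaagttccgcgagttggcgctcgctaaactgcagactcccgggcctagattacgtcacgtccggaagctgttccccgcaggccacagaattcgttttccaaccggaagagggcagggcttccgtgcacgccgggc
Mybbp1a (chr11:72441077-72441376, plus strand): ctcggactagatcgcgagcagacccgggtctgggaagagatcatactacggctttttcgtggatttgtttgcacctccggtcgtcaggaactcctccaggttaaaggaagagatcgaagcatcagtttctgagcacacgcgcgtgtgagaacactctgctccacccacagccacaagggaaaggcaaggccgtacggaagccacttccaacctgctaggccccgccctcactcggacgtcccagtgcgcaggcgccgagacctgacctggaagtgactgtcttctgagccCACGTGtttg
Paics (chr5:76951052-76951351, plus strand): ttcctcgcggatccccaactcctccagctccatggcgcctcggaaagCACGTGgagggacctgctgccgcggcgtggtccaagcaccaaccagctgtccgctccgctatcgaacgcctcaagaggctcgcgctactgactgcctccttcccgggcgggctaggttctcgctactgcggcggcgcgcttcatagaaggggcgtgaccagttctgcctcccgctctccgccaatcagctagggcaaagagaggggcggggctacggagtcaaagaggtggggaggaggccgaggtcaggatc
Impdh2, the rate-limiting enzyme of guanine nucleotide synthesis, had 405 FPKM in T-ALL and 109 FPKM in normal T cells, and its E-box begins at position -110 from the start. Dtymk, thymidylate kinase, had 304 FPKM in T-ALL and 73.8 FPKM in normal T cells, with the word at -148. Mybbp1a, a nucleolar protein, had 295 FPKM in T-ALL and 117 FPKM in normal T cells, with the word at 40. Paics, a purine enzyme, had 222 FPKM in T-ALL and 81.5 FPKM in normal T cells, with the word at -203.

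Several other metabolic lists held more higher than lower genes. Of 19 serine, glycine and one-carbon enzymes 11 were higher and 1 was lower (median 1.41). Phgdh, which starts serine synthesis, had 483 FPKM in T-ALL and 89.99 FPKM in normal T cells, and Shmt1 had 86.2 FPKM in T-ALL and 15.6 FPKM in normal T cells. Of 26 glycolysis and lactate genes 13 were higher and 1 was lower (median 1.01). Tpi1 had 804 FPKM in T-ALL and 111 FPKM in normal T cells and Pkm had 1599.6 FPKM in T-ALL and 514 FPKM in normal T cells, whereas the glucose transporter Slc2a1 had 25.9 FPKM in T-ALL and 29.98 FPKM in normal T cells. TCA cycle and glutamine enzymes were higher in 17 of 30 cases and lower in 2. Asns, asparagine synthetase, had 24.4 FPKM in T-ALL and 1.48 FPKM in normal T cells, and Glul, glutamine synthetase, had 13.6 FPKM in T-ALL and 121 FPKM in normal T cells.

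Polyamine and methyl-cycle enzymes were higher in 7 of 14 cases. Srm, spermidine synthase, had 426 FPKM in T-ALL and 70.6 FPKM in normal T cells, and Sat1, which starts polyamine breakdown, had 27.1 FPKM in T-ALL and 162 FPKM in normal T cells. Of 22 cholesterol and fatty acid genes 9 were higher and 2 lower. Scd2 had 78.2 FPKM in T-ALL and 16.5 FPKM in normal T cells and its relative Scd1 had 0.191 FPKM in T-ALL and 22.5 FPKM in normal T cells. Nutrient transporters were higher in 9 of 23 cases and lower in 1, for example Slc29a1, a nucleoside carrier, with 181 FPKM in T-ALL and 31.02 FPKM in normal T cells. Nuclear genes of the respiratory chain were higher in 10 of 24 cases and lower in 0 (median 0.89), whereas of 15 mitochondrially encoded genes 0 were higher and 1 was lower (median -0.12).

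Of 13 genes of the BCL2 family, which promote or restrain cell death, 6 were at least 2-fold lower and 0 higher, with 4 differences above 0 and a median of -0.72. Bcl2, the survival factor of resting T cells, had 2.51 FPKM in T-ALL and 88.4 FPKM in normal T cells and was 35.3-fold lower (95% counting interval 32.4 to 38.5). Mcl1 had 117 FPKM in T-ALL and 319.7 FPKM in normal T cells, Bcl2l1 (BCL-XL) had 8.37 FPKM in T-ALL and 37.4 FPKM in normal T cells, and the death-promoting gene Bcl2l11 (BIM) had 10.3 FPKM in T-ALL and 49.2 FPKM in normal T cells. Bax, the effector of mitochondrial death, had 224 FPKM in T-ALL and 130.2 FPKM in normal T cells. Of 19 caspases and death receptors 10 were lower and 3 higher. Fas had 0.521 FPKM in T-ALL and 17.9 FPKM in normal T cells, and Ripk3, a kinase of necroptosis, had 82.7 FPKM in T-ALL and 25.4 FPKM in normal T cells. In the p53 list 3 of 25 were higher and 8 lower. Perp had 106 FPKM in T-ALL and 1.86 FPKM in normal T cells, Cdkn1a (p21) had 1.03 FPKM in T-ALL and 3.48 FPKM in normal T cells, and Trp53 had 103 FPKM in T-ALL and 75.4 FPKM in normal T cells.

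Of 22 Polycomb, DNA methylation and chromatin genes 13 were higher and 3 lower (median 1.20). Uhrf1, which maintains DNA methylation, had 189 FPKM in T-ALL and 26.2 FPKM in normal T cells, Dnmt1 had 199 FPKM in T-ALL and 58.03 FPKM in normal T cells, and Hmga1 had 416 FPKM in T-ALL and 89.8 FPKM in normal T cells. Cbx7, a Polycomb subunit, had 61.9 FPKM in T-ALL and 177 FPKM in normal T cells. In the actin and motility list 8 of 29 were lower (27.6%, against 24.0% of all compared genes) and 1 was higher (3.45%, against 22.1%). Vim, vimentin, had 22.3 FPKM in T-ALL and 302 FPKM in normal T cells, and Tmsb4x, which holds free actin, had 452 FPKM in T-ALL and 4066 FPKM in normal T cells, while Actb had 2234 FPKM in T-ALL and 2781 FPKM in normal T cells. Lysosome and autophagy genes were lower in 11 of 26 cases and higher in 0.

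Stress lists were mixed. Of 20 integrated stress response targets 8 were higher and 4 lower, and Atf4, the factor that drives them, had 93.6 FPKM in T-ALL and 192 FPKM in normal T cells. Of 13 unfolded protein response genes 4 were higher (30.8%) and 2 lower (15.4%), and of 14 hypoxia genes 4 were higher (28.6%) and 3 lower (21.4%). Over all compared genes these shares were 22.1% and 24.0%. Car12, a carbonic anhydrase, had 57.7 FPKM in T-ALL and 3.63 FPKM in normal T cells, and Vegfa, the vascular growth factor, had 13.7 FPKM in T-ALL and 3.34 FPKM in normal T cells. Ndrg1, a hypoxia-induced gene, was among the lower ones, with 1.31 FPKM in T-ALL and 13.9 FPKM in normal T cells. Among constitutive proteasome genes 4 of 12 were higher and 0 lower.

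Markers of B cells, basophils and dendritic cells were mostly low in T-ALL beside normal T cells. All 18 of 18 B-cell markers were at least 2-fold lower. Their summed level was 22.4 FPKM in T-ALL and 1256 FPKM in normal T cells, which is 14.9% of the sum in sorted normal B cells. Basophil and mast cell markers summed to 7.87 FPKM in T-ALL and 621 FPKM in normal T cells, with Gata2 at 0.0836 FPKM in T-ALL and 51.8 FPKM in normal T cells. The basophil and mast cell markers Fcer1a and Ms4a2 were at 0 in T-ALL. Markers of dendritic cells and MHC class II summed to 258 FPKM in T-ALL and 1119 FPKM in normal T cells. Of 13 compared in this list, 11 were at least 2-fold lower and 1 was higher. The higher one was Batf3, with 37.9 FPKM in T-ALL and 0.110 FPKM in normal T cells. How far these cells contribute to the lower genes was not tested.

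Of 19 neutrophil markers 4 were at least 2-fold higher (21.1%, against 22.1% of all compared genes) and 2 lower (10.5%, against 24.0%). Their sums were 1989 FPKM in T-ALL and 1285 FPKM in normal T cells, under 1% of the sum in normal myeloid cells. Gfi1, a repressor of promyelocytes and of T cells, had 236 FPKM in T-ALL and 19.9 FPKM in normal T cells. The other marker lists had 3 of 10 promyelocyte genes higher and 5 lower, 2 of 9 plasma cell genes higher and 5 lower, and 2 of 10 erythroid genes higher and 4 lower. The shares higher were 30%, 22.2% and 20%, against 22.1% of all compared genes, and those lower 50%, 55.6% and 40%, against 24.0%. Of 16 monocyte genes 5 were lower, of 9 plasmacytoid dendritic cell genes 7, of 12 stem and progenitor genes 10, of 5 eosinophil genes 5, and of 3 megakaryocyte genes 3, with none higher in any of these 5 lists. Of 6 stromal genes 2 were higher and 2 lower. Of 82 compared immunoglobulin heavy V segments 71 were lower and 1 was higher, Ighv10-1, with 19.2 FPKM in T-ALL and 4.82 FPKM in normal T cells. Of 80 kappa V segments 73 were lower and 0 higher. Among the heavy constant genes, Ighm and Ighd were at least 2-fold lower and Ighg2c was higher. Ighd had 3.78 FPKM in T-ALL and 76.98 FPKM in normal T cells. Ighm had 202 FPKM in T-ALL and 679.7 FPKM in normal T cells, and Ighg2c, the higher one, had 9.84 FPKM in T-ALL and 1.86 FPKM in normal T cells.

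**Figure D5:**
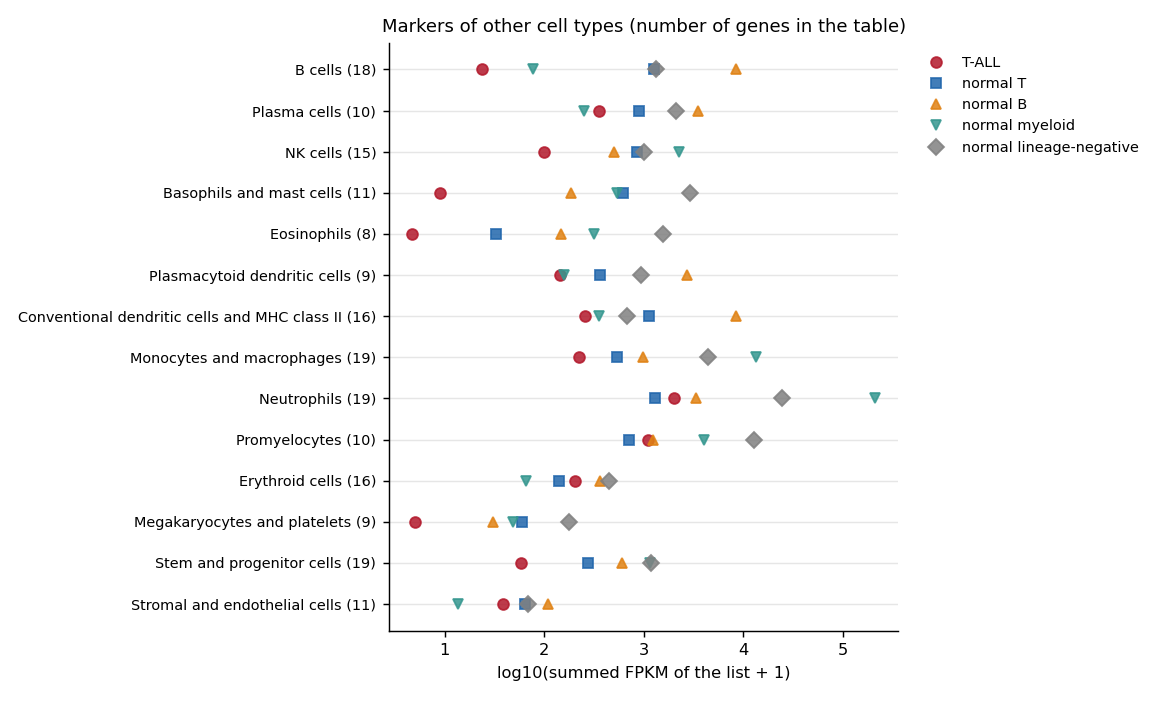
Summed FPKM of marker lists of other cell types, as log10(sum + 1), in T-ALL, normal T and the 3 other normal libraries, 1 library each. For B cells, basophils and mast cells, eosinophils and megakaryocytes the red circle of T-ALL lies lowest, and for neutrophils it lies beside normal T, far left of normal myeloid cells.

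The 3 other N-Myc leukaemias of the series, B-ALL, AML and AUL (the labels' abbreviations), were each set against the normal cells of their own gate, without a test. Of the 2309 genes higher in T-ALL, 1037 were also at least 2-fold higher in B-ALL against normal B cells. They were 44.9% of the T-ALL genes, beside 18.2% higher among all genes compared in B-ALL. They were also 53.8% of the B-ALL genes, beside 22.1% higher among all genes compared in T-ALL. In AML against normal myeloid cells 1423 were shared. This is 61.6% of the T-ALL genes, beside 43.3% higher among all genes compared in AML. It is 33.01% of the AML genes, beside the same 22.1% in T-ALL. In AUL against lineage-negative cells 533 were shared. This is 23.1% of the T-ALL genes, beside 13.6% higher among all genes compared in AUL. It is 36.5% of the AUL genes, beside the same 22.1% in T-ALL. For 586 of the T-ALL genes (25.4%) none of these 3 pairs was at least 2-fold higher. The same share over all compared genes was not computed.

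Of the 2514 genes lower in T-ALL, 1185 were also lower in B-ALL. This is 47.1% of the T-ALL genes, beside 21.9% lower among all genes compared in B-ALL. It is 51.1% of the B-ALL genes, beside 24.0% lower among all genes compared in T-ALL. In AML 1027 were shared, 40.9% of the T-ALL genes (beside 26.7% in AML) and 38.6% of the AML genes (beside 24.0% in T-ALL). In AUL 1220 were shared, 48.5% of the T-ALL genes (beside 29.5% in AUL) and 38.4% of the AUL genes (beside 24.0% in T-ALL). The median of the homing and quiescence list was -3.20 in T-ALL, -1.23 in B-ALL, -1.75 in AML and -0.50 in AUL. The median of the mitosis list was 2.23 in T-ALL, 0.76 in B-ALL, 0.84 in AML and 0.28 in AUL. Its summed FPKM was 3752 in T-ALL, 4653 in B-ALL, 3130 in AML and 4053 in AUL. In normal cells the sum was 892 in T cells, 2586 in B cells, 1825 in myeloid cells and 3164 in lineage-negative cells. T-ALL thus had the largest median difference but not the highest level of these genes.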

How the data were processed

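Poly(A) RNA was extracted with Trizol and sequenced on an Illumina HiSeq in paired 150-base reads, per the labels' protocols. The deposited FPKM values were made by the authors from reads set against mm10, and STAR, HTSeq and edgeR are named without version or setting in the submitters' processing notes. Each of the 8 libraries stands for 1 group, and how genes entered the table is not stated, so all shares refer to listed genes. The comparison used the T-ALL and normal T columns, all genes with FPKM of at least 1 in either, and log2(FPKM + 1).

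Fragment numbers were recovered from FPKM and GENCODE transcript lengths. In genes with 1 transcript, on which the library totals were fitted, 96.6% of T-ALL values and 96.6% of normal T values were whole within 0.02. Over genes with any number of transcripts, taken at their mean length, the shares were 88.9% and 88.4%. At the median length an FPKM of 1 rests on 67.5 fragments in T-ALL and 57.8 in normal T. Folds carry 95% exact intervals for the ratio of 2 counts.

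The 68 gene lists (54 processes, 14 cell types) and the genes compared were chosen with earlier results of these data known. Named genes were Mycn and Myc, the 25 highest and 25 lowest differences with FPKM of at least 10, up to 6 called members a list in each direction, leading receptor segments, and any other list member whose value is given. Some genes that the rule takes are not reported here. The scripts were tested on simulated data. Python 3.11.15, pandas 2.3.3, NumPy 2.4.6, SciPy 1.17.1 and matplotlib 3.10.9 were used. Alternatives changed the scaling, the pseudocount, the FPKM minimum, the fold and the genes compared.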

Additional observations from a re-analysis of the deposited data

Results flagged for a closer look

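The results here stand out because T-ALL went one way and the 3 other leukaemias, each against its own normal library, all went the other way. These differences between pairs were not tested, since each pair has 1 library a side. The median of the CD3 and proximal receptor signalling list was -0.85 in T-ALL, 0.67 in B-ALL, 0.48 in AML and 2.09 in AUL. By summed FPKM of this list, only AUL was higher, with 3479 against 737 in lineage-negative cells. B-ALL had 991 against 1262 in normal B cells, and AML had 445 against 953 in normal myeloid cells. Medians of these pairs were not recomputed under median-ratio scaling, whose factors were 1.08 for AML and 0.593 for normal myeloid cells.

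Among genes with at least 10 FPKM in T-ALL or normal T, receptor segments and predicted genes left out, 9 were at least 2-fold lower in T-ALL and at least 2-fold higher in each of the other 3 pairs. Without these limits, among all compared genes, 14 did so. Nsg2, an endosomal protein, differed by -6.69 in T-ALL, 2.07 in B-ALL, 1.79 in AML and 4.62 in AUL. Gzmk, granzyme K, differed by -4.14 in T-ALL, 3.35 in B-ALL, 1.90 in AML and 6.61 in AUL. Itm2a, a membrane protein of developing T cells, differed by -3.56 in T-ALL and 4.83 in AUL. Rnf43 and Znrf3, ubiquitin ligases that remove WNT receptors, differed by -2.95 and -1.11 in T-ALL. Unc5cl (-2.89), Lcn4 (-2.80), Crmp1 (-1.33) and Cdon (-1.02) were the other 4 in T-ALL. The leukaemia levels themselves differed for some of these genes and not for others. Nsg2 had 0.486 FPKM in T-ALL, 17.6 in B-ALL, 3.74 in AML and 96.7 in AUL. Lcn4 had 3.02 FPKM in T-ALL, 1.75 in B-ALL, 2.87 in AML and 3.71 in AUL. In normal cells Lcn4 had 26.99 FPKM in T cells and 0.668 or less in the other libraries.

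In the opposite direction, 5 genes were at least 2-fold higher in T-ALL and at least 2-fold lower in each of the other 3 pairs. Optn, the autophagy receptor optineurin, differed by 2.78 in T-ALL, -1.26 in B-ALL, -1.998 in AML and -2.83 in AUL. H1f0, a linker histone, differed by 2.04 in T-ALL and Rbpms, an RNA-binding protein, by 2.04. Myl10 differed by 2.16 and Lair1, the inhibitory collagen receptor, by 1.09.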

How the results depend on the processing

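No paired analysis was possible because each group has 1 library. At a 4-fold limit 557 genes were higher and 1099 lower, and with a pseudocount of 5, 1406 were higher and 1455 lower, against 2309 and 2514 as reported. Under median-ratio scaling the median of all genes was -0.14 and 39.97% of the called genes were higher, against 47.9%. Under the other 7 settings run, median-ratio scaling included, both counts stayed within 1.5 times those reported. For 1 of these, which took any listed gene above 0, the counts could not change. A gene under 1 FPKM in both libraries cannot reach a difference of 1. Of the 68 lists, 42 had a median of at least 1 in size, and 28 of these stayed past 1 under every setting run on lists, and none of the 42 turned its sign. Of 1326 genes in lists, 30 changed sign under median-ratio scaling, all of them with a difference under 1 in size. With 1 library a side, variation between animals, sorts and library preparations is not measured, low genes rest on few fragments, and the counting intervals cover none of it.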

Other observations

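Some genes stood apart in T-ALL from all 7 other libraries, leukaemic and normal. Of genes with at least 10 FPKM in T-ALL, receptor segments and predicted genes left out, 20 were at least 10-fold above the highest of the others. Beside those described, Ptpn3, a tyrosine phosphatase, had 35.5 FPKM in T-ALL, 1.61 FPKM in normal T cells and at most 2.31 FPKM elsewhere. Cdcp1, a surface glycoprotein, had 15.4 FPKM in T-ALL and 0.160 FPKM in normal T cells. Syt13, a synaptotagmin of secretory cells, had 13.3 FPKM in T-ALL and 0.0431 FPKM in normal T cells. Ybx2, an RNA-binding protein of germ cells, had 18.3 FPKM in T-ALL and 0.125 FPKM in normal T cells. Adamts20, a secreted protease, had 14.3 FPKM in T-ALL and 0.0418 FPKM in normal T cells. The genes named in these observations were chosen after their values were seen.

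On the low side, receptor segments and predicted genes were again left out. The genes taken had at least 10 FPKM in normal T cells and at least 1 FPKM in each other library. Of these, 15 had a T-ALL level at least 10-fold below the lowest of the other 7. Klf3, a Krüppel-like repressor of lymphocytes, had 0.874 FPKM in T-ALL and 142 FPKM in normal T cells, and B-ALL had 23.9 FPKM, AML 15.7 FPKM and AUL 22.5 FPKM. Zeb2, a factor of effector T and NK cells, had 0.930 FPKM in T-ALL and 18.95 FPKM in normal T cells. Aim2, a cytosolic DNA sensor, had 2.33 FPKM in T-ALL and 60.7 FPKM in normal T cells. Il15ra, the receptor chain that presents IL-15, had 0.443 FPKM in T-ALL and 12.3 FPKM in normal T cells. Fosb, an AP-1 subunit, had 4.47 FPKM in T-ALL and 251 FPKM in normal T cells, and AML had 143 FPKM. These are values of single libraries, and variation within a group was not measured.

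Chromosome medians of the difference, without receptor segments and predicted genes, ranged from -0.21 on chromosome 1 to 0.30 on chromosome 8. This leaves out chromosome Y, which had 1 compared gene (-0.38).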
